A study of Mus musculus with 12 samples.

Results

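The proteasome is the protease that degrades ubiquitin-tagged proteins, and the genes of its subunits were followed here in 2 epithelial cell types of the mouse prostate at 2 ages. The members were all genes of the deposited tables whose symbol begins with Psma, Psmb, Psmc or Psmd and a number, leaving out the 3 immunoproteasome subunits Psmb8, Psmb9 and Psmb10. This rule gave 37 of 24054 genes. Of these, 16 have names of the core particle (8 alpha and 8 beta) and 21 have names of the regulatory particle. The latter comprise 6 ATPases (Psmc1 to Psmc6), 11 non-ATPase subunits, the 3 assembly chaperones Psmd5, Psmd9 and Psmd10, and Psmc3ip, a meiotic recombination factor that only its symbol places here. The samples were basal and luminal cells sorted from prostates of C57BL/6 mice aged 3 months (young) or 24 months (old), with 3 RNA-seq libraries in each of 4 groups. The labels name no transgene or treatment, and each library pooled 2 mice of equal age, so that single animals cannot be seen.

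The core particle is a barrel of stacked rings. Outer alpha rings gate the entry, and inner beta rings carry the catalytic sites of Psmb5 (chymotrypsin-like), Psmb6 (caspase-like) and Psmb7 (trypsin-like). The regulatory particle caps the barrel: a ring of ATPases unfolds the substrate, and non-ATPase subunits recognise ubiquitin, remove it and hold the complex together. When proteasome activity is short, the transcription factor Nfe2l1 is known to raise the genes of most subunits at once, through antioxidant response elements in their promoters, and Nfe2l2 can act on the same kind of element. Prostate luminal cells secrete large amounts of protein, and basal cells line the basement membrane beneath them.

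To show the DNA next to such genes, the RefSeq promoter windows (250 bases before to 50 after a start, GRCm38.p6, the assembly of mm10) were searched on both strands for TGACNNNGC, a core of that element. Of the 37 members, 30 matched by symbol, with 32 windows, and 5 windows (15.6%) held the motif against 12.4% of all 32851 windows. The 5 were those of Psmb5, Psmb6, Psmc6, Psmd9 and Psmd12. The looser TGANNNNGC, which includes the former, was in 59.4% of member windows and 41.3% of all windows. Member windows had a median GC content of 57.0% against 52.7% and a median of 20 CG dinucleotides against 7. Letters that match are a description of these windows and not evidence of binding. The windows of 3 genes are printed because the expression results below turn on their genes, 5′ to 3′ on the strand of the gene, with the motif in capitals. For Psmd12, called higher in old basal cells, the 200 bases at chr11:107479278-107479477 (plus strand) end 50 bases before the start, and the match is on the opposite strand. For the catalytic Psmb5, called higher in luminal cells, the 223 bases at chr14:54618023-54618245 (minus strand) end 27 bases before the start. For Psma7, the member called in the difference of the age responses, the 250 bases at chr2:180042465-180042714 (minus strand) hold no match.
Psmd12: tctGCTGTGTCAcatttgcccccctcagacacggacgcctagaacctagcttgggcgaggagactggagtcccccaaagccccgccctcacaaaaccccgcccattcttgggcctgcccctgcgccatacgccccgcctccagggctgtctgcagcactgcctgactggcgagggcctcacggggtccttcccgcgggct
Psmb5: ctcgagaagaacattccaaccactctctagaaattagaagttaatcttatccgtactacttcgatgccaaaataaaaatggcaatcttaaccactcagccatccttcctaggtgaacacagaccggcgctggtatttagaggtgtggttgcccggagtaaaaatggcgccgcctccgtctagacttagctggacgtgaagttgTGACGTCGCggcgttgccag
Psma7: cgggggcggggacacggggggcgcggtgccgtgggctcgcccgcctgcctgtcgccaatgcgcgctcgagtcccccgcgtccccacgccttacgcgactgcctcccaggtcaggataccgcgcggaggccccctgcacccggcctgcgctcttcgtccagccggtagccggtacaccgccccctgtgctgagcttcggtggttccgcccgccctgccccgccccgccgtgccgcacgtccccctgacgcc

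The 12 libraries held 20012691 to 27663450 counted reads. No molecular identifiers were used, so PCR copies among these reads cannot be counted directly. Distinct fragments were estimated from genes above a minimum count that were seen in 1 library of a group and in few other libraries. The median read count of such genes was taken as the copies of 1 fragment, which was not tested. This estimate was 378951 to 564922 for the young and 669232 to 1443424 for the old basal libraries. It was 744441 to 870116 for the young and 543502 to 728631 for the old luminal libraries. By that estimate an expressed subunit rested on a median of 33 and 99 fragments per library in basal cells at 3 and 24 months. In luminal cells the medians were 55 and 46. The labelled cell types carried their markers: 7 basal markers such as Krt5 and Trp63 summed to 12600 to 13400 TPM (transcripts scaled for gene length to a fixed total) in young basal and 192 to 238 TPM in young luminal libraries. In old libraries those sums were 9810 to 10500 TPM in basal and 355 to 737 TPM in luminal cells. The 7 luminal markers, such as Krt8, differed less. They summed to 6370 to 6390 TPM in young basal and 10800 to 12100 TPM in young luminal libraries, and to 6190 to 6960 and 13700 to 15600 TPM in old ones. Basal young replicate 1 had the fewest genes above 0 (11706), and results that change without it are given where they stand. Nothing in the labels says that replicates of 1 group were handled on separate days. The p-values rest on the spread between libraries within a group, estimated over all 4 groups. Differences between pools, handling and the counting of fragments cannot be told apart in it.

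Levels of the subunits were compared per length, as TPM. Of the 33 names that belong to the core, the ATPases or the non-ATPases, 31 were expressed in every library, which is a set defined after seeing these levels. Psmd8, a non-ATPase subunit of the lid, had the highest mean over the 12 libraries (295 TPM, range 206 to 444). In the core, Psmb4, a beta subunit without a catalytic site, was highest (242 TPM, range 155 to 336), followed by Psmb6 (209 TPM) and Psmb2 (203 TPM). The lowest expressed subunits were Psmd14, the deubiquitinase of the lid (36.1 TPM, range 22.8 to 60.5), and, in the core, Psma5 (49.9 TPM, range 27.3 to 72.5). Neighbours in this order overlapped in their ranges. The order of the 31 subunits was similar between groups: Spearman's rho of group means was 0.95 between young and old basal cells, 0.963 between young and old luminal cells and 0.789 to 0.846 between cell types. These rho values are across genes, which share libraries and annotation, and carry no test.

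**Figure D1:**
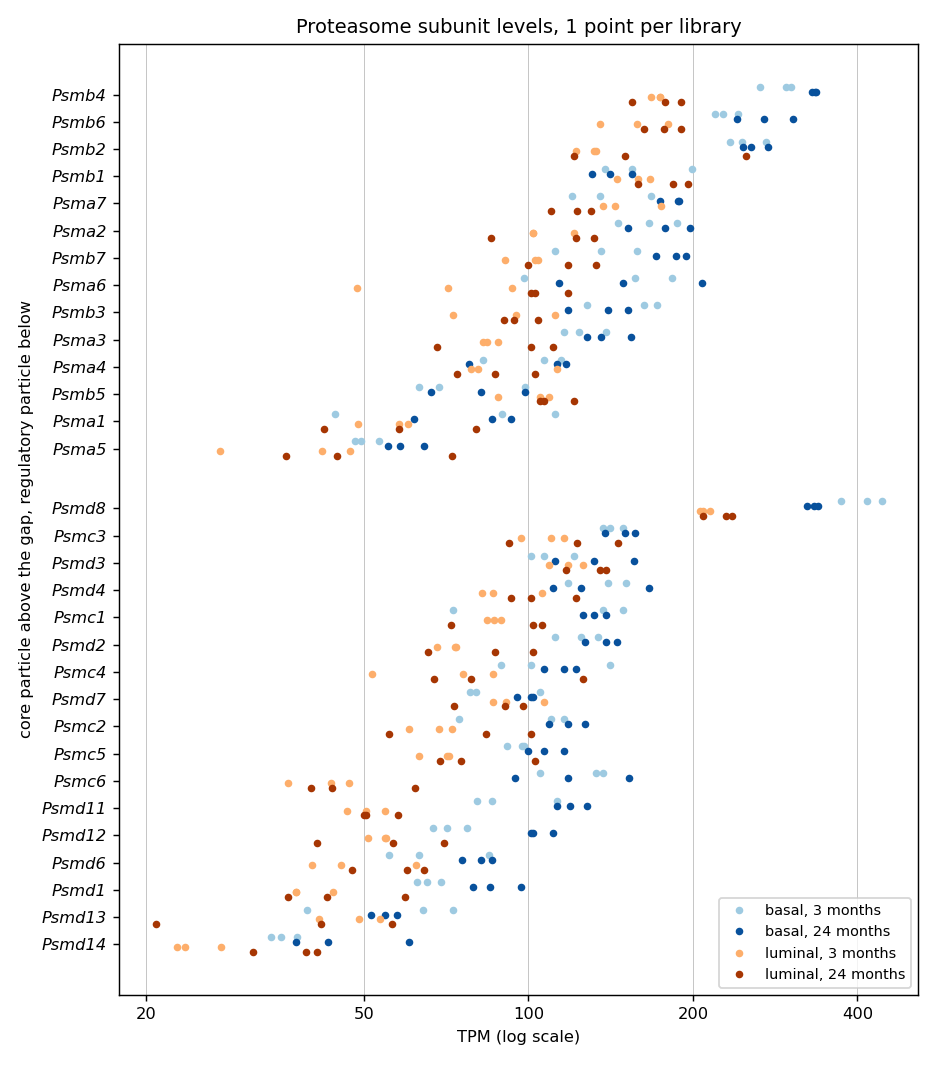
TPM (log scale) of the 31 expressed subunits, 1 point per library, coloured by cell type and age, with core subunits above the gap and regulatory subunits below, each block ordered by mean level. Psmd8 and Psmb4 lead their blocks and Psmd14 is lowest. Luminal points tend to lie left of basal points of the same age for most subunits, but the points of many subunits overlap. Those of Psmb5 tend to lie to the right.

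The other 6 members were lower on average than these 31. Psma8, the testis-type alpha subunit, had no read in any of the 12 libraries and was not tested. Psmb11, the thymus-type beta subunit, was at 0 to 2.02 TPM, and it is similar in sequence to Psmb5, so its few reads are uncertain. Psmc3ip was at 0 to 2.63 TPM. The chaperones Psmd5, Psmd9 and Psmd10, which help the ATPase ring assemble and then leave it, had means of 13, 9.08 and 12.9 TPM over all libraries. In all, 36 of 37 members passed the filter on low counts.

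Read counts scaled to equal effective library totals (normalized CPM) were used to test each member, and a member was called at a Benjamini-Hochberg adjusted p under 0.05 over the 14201 tested genes in edgeR's quasi-likelihood fit. The first comparison asks how the subunits of basal cells differ with age. In old cells, 2 non-ATPase subunits rose and no subunit fell, while the estimates of nearly all other subunits lay above 0. Of all tested genes, 1.82% were called in this comparison (1.5% higher), with 0.324% lower, against 2 of 36 members.

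Psmd12, a lid subunit that links the lid to the base, was at 63.9, 58.7 and 52.1 CPM in young basal libraries and at 97.0, 101 and 93.6 CPM in old ones. Every old library lay above every young library. The log2 fold change was 0.74 ± 0.17 (SE, n = 3 libraries per group; edgeR Benjamini-Hochberg adjusted p = 0.0322), from a mean of 58.2 ± 5.88 to 97.2 ± 3.66 CPM (SD). In luminal cells the same gene was at 63.3, 61.9 and 57.9 CPM at 3 months and at 69.7, 50 and 58.2 CPM at 24 months, which overlap, with a log2 fold change of -0.04 (95% interval -0.38 to 0.29). The difference between these age responses was not called for Psmd12 (-0.78 ± 0.24, edgeR adjusted p = 0.176).

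Psmd1, the large scaffold subunit of the base, was at 112, 101 and 99.7 CPM in young and at 149, 173 and 152 CPM in old basal libraries, again without overlap (0.60 ± 0.15, edgeR adjusted p = 0.0486). In luminal cells its values overlapped, at 99.1, 83.7 and 83.9 CPM against 116, 86.6 and 86.3 CPM. Psmd1 (GENCODE M21, chromosome 1, 86064619 to 86139295) overlaps Htr2b on the opposite strand, and the strand setting of the counting is not given in the sources used here. Both calls lie close to the threshold. Over 13 alternatives Psmd12 was called in 4 (adjusted p 0.00479 to 0.206) and Psmd1 in 2 (adjusted p 0.0249 to 0.358). Without basal young replicate 1 the called members were Psmd11 and Psmd12, and without basal young replicate 2 Psmb7 alone.

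The catalytic subunits were not called with age in basal cells. Psmb7 was at 49.1, 69.2 and 56.0 CPM in young and at 98.9, 82.4 and 90.0 CPM in old basal libraries, which do not overlap (log2 0.64 ± 0.17, edgeR adjusted p = 0.0703). Psmb6 was at 104, 115 and 101 CPM against 133, 159 and 141 CPM, also apart (0.44 ± 0.16, edgeR adjusted p = 0.193). Psmb5 overlapped, at 24.5, 38.4 and 25.0 CPM against 29.9, 42.0 and 35.1 CPM (0.28 ± 0.23, edgeR adjusted p = 0.674, 95% interval -0.17 to 0.74). That interval holds changes of either sign, so the direction of a change in Psmb5 was not settled.

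**Figure D2:**
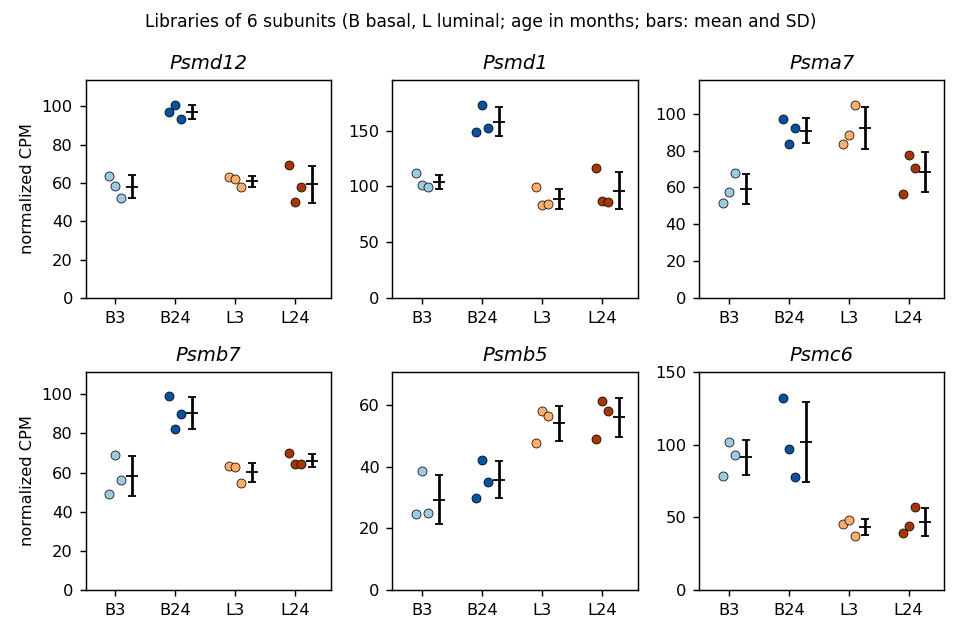
Normalized CPM of 6 subunits in each library, from 0, for basal (B) and luminal (L) cells at 3 and 24 months, with group mean and SD to the right of the points. Psmd12 and Psmd1 are higher in all 3 old basal libraries, Psma7 is higher in old basal and lower in old luminal libraries, Psmb5 is higher and Psmc6 lower in luminal cells.

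Over the list, 30 of the 31 expressed subunits had an estimate above 0 in old basal cells, with a median log2 of 0.332, where 56.6% of all tested genes lay above 0 with a median of 0.095. Old and young libraries did not overlap for 17 of 36 members, all higher, against 13.4% of all genes that were higher without overlap and 5.67% that were lower. By role, the 17 were 3 of 7 tested alpha, 4 of 8 beta, 3 of 6 ATPase and 7 of 11 non-ATPase genes. An unadjusted edgeR p under 0.05 was found for 13 of 31 expressed subunits and 14% of all genes. The exception to the direction was Psmd8, the most abundant of the 31 in mean TPM (319, 300 and 253 CPM against 270, 264 and 270 CPM, log2 -0.12 ± 0.13). Psmb1, a beta subunit without a catalytic site, had an estimate of 0.00 ± 0.15. Members share libraries and scaling factors, so these counts are a description. Scaling moves them: with DESeq2 size factors the median of all genes in this comparison is 0.00 and that of the members 0.24, and the member median lay 0.174 to 0.316 above that of all genes over the main setting and its alternatives. The scaling factors of the main fit were 1.016 to 1.075 in young and 0.919 to 0.965 in old basal libraries. Estimated fragments were also apart, at 378951 to 564922 and 669232 to 1443424. In these libraries such differences cannot be told apart from age, and their part in the counts was not tested. In the same libraries 5 of 6 fibroblast and 5 of 5 smooth muscle markers had an estimate below 0 with age, none of them called. Fibroblast markers summed to 1360 to 1740 TPM in young and 1200 to 1340 TPM in old basal libraries, which is mostly Dcn (mean 1550 and 1240 TPM). The collagens were lower in all 3 old libraries, with Col1a1 at 46.4 and 5.99, Col1a2 at 50.2 and 11 and Col3a1 at 39.3 and 12.1 mean CPM. Lum was at 2.7, 0.488 and 0 CPM in the young and at 0 in all 3 old libraries, which overlap. Smooth muscle markers summed to 217 to 242 TPM in young and 39.3 to 102 TPM in old basal libraries. The part of these cells in the differences of the subunits was not tested, and fewer cells of a type and less RNA per cell cannot be told apart.

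In luminal cells no member was called with age, against 1.92% of all genes, and none was called under any of the 13 alternatives, DESeq2 included. One of 31 expressed subunits had an unadjusted edgeR p under 0.05, against 10.5% of all genes. The median log2 of the expressed subunits was 0.055, with -0.019 for all genes. The smallest p belonged to Psma7, at 83.6, 88.6 and 105 CPM in young and 56.7, 77.9 and 70.7 CPM in old luminal libraries, all old ones lower (-0.44 ± 0.17, edgeR adjusted p = 0.331). Psmd14, which cuts ubiquitin chains off the substrate, was at 23.3, 23.6 and 27.7 CPM against 36.1, 33.8 and 35.8 CPM, all old ones higher (0.50 ± 0.25, edgeR adjusted p = 0.501). Psma6 overlapped, at 58.8, 30.1 and 44.5 CPM against 54.7, 68.7 and 66.3 CPM (0.51 ± 0.26, edgeR adjusted p = 0.521). Young and old luminal libraries did not overlap for 2 members that were higher (8.71% of all genes) and 3 that were lower (9.6%).

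**Figure D3:**
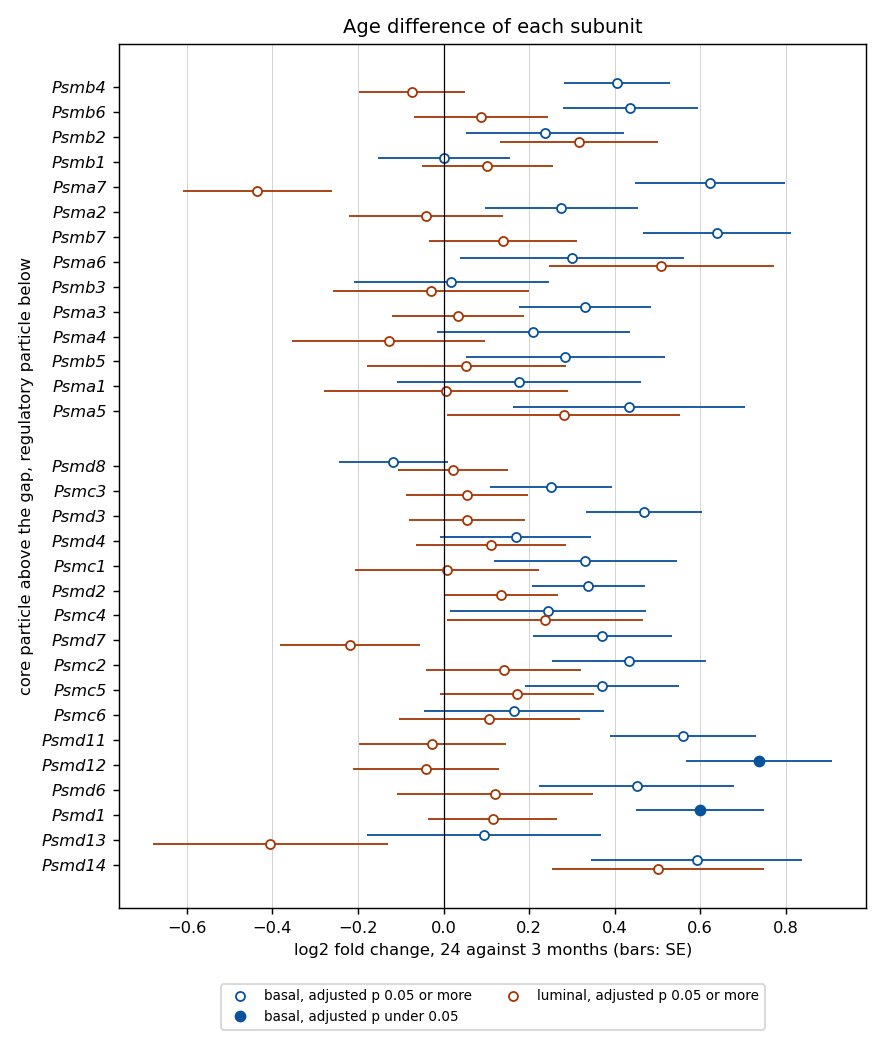
Log2 fold change of each expressed subunit at 24 against 3 months (points) with its SE (bars), for basal cells in blue and luminal cells in brown; filled points have an edgeR adjusted p under 0.05. The basal points lie right of 0 for 30 of 31 subunits, with Psmd12 and Psmd1 filled, and the luminal points lie around 0.

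The difference of the age responses, luminal minus basal, was tested as an interaction. One member was called, Psma7, against 0.922% of all genes. Psma7, an alpha subunit of the outer core ring, was at 51.5, 57.8 and 67.8 CPM in young basal and at 97.0, 83.5 and 92.3 CPM in old basal libraries, which do not overlap, while its luminal values given above went the other way. The difference was -1.06 ± 0.25 (edgeR adjusted p = 0.0493), which lies at the threshold: 4 of 19 alternatives called it, with adjusted p from 0.00517 to 0.198. It was lost without any single library except basal young replicate 3. Neither age response of Psma7 alone was called (edgeR adjusted p = 0.0776 in basal and 0.331 in luminal cells). The member median of this difference was -0.262, with -0.13 for all genes.

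The last comparison asks how the 2 cell types differ in their subunits at each age. These contrasts use the same libraries as the age comparisons and are given beside them without comparing the lists. At 3 months 8 of 36 members were called, with 6 higher in the luminal group and 2 lower, when 37.1% of all genes were called (18.6% higher, 18.5% lower). At 24 months 9 were called, 2 higher and 7 lower, when 35.2% of all genes were (15.4% higher, 19.8% lower). At 3 months luminal and basal libraries did not overlap for 7 members that were higher (28.5% of all genes) and 7 that were lower (23.1%); at 24 months these were 4 (25.2%) and 15 (27.9%). In this fit the share of members called was below that of all genes at both ages. On the TPM scale given below it was not.

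Of the catalytic subunits, Psmb5 alone was higher in luminal cells at both ages. It was at 47.5, 58.1 and 56.3 CPM in young luminal cells, above the 24.5 to 38.4 CPM of young basal cells (0.88 ± 0.23, edgeR adjusted p = 0.00571), and at 48.9, 61.1 and 58.0 CPM in old luminal cells, above the 29.9 to 42.0 CPM of old basal cells (0.65 ± 0.23, edgeR adjusted p = 0.0363). The call at 3 months was kept in 13 of 14 alternatives (adjusted p 0.000322 to 0.0918) and that at 24 months in 9 of 14 (0.00236 to 0.134). For Psmb6 the log2 difference was -0.05 ± 0.16 at 3 months and -0.40 ± 0.16 at 24 months (edgeR adjusted p = 0.85 and 0.0566). For Psmb7 it was 0.05 ± 0.17 and -0.45 ± 0.17 (edgeR adjusted p = 0.865 and 0.0506).

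Psmb1 was the other core subunit higher in luminal cells at both ages. Its libraries held 105, 108 and 94.3 CPM in young luminal against 65.2, 73.2 and 88.7 CPM in young basal cells (0.44 ± 0.15, edgeR adjusted p = 0.033) and 104, 111 and 115 CPM against 77.7, 68.2 and 81.2 CPM in old cells (0.54 ± 0.15, edgeR adjusted p = 0.0102). The luminal and basal values were apart at each age. The call at 3 months held in 5 of 14 alternatives (adjusted p 0.00639 to 0.813). Psma7 was higher in luminal cells at 3 months (0.65 ± 0.17, edgeR adjusted p = 0.00641) and had an estimate of -0.41 ± 0.17 at 24 months (edgeR adjusted p = 0.0785). Psmb4 was lower in luminal cells at 24 months, at 97.2, 97.8 and 94.6 CPM against 164, 158 and 158 CPM (-0.73 ± 0.12, edgeR adjusted p = 0.000117), a call kept in 14 of 14 alternatives.

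In the regulatory particle, the ATPase Psmc6 showed the largest called difference of the 31 expressed subunits at both ages. It was at 45.3, 47.9 and 37.2 CPM in young luminal against 78.5, 102 and 93.2 CPM in young basal cells, and at 39.2, 44.0 and 57.4 CPM in old luminal against 132, 96.9 and 77.8 CPM in old basal cells. No luminal library reached a basal one. The log2 difference was -1.07 ± 0.21 at 3 months and -1.13 ± 0.21 at 24 months (edgeR adjusted p = 0.000534 and 0.000337), kept in 14 of 14 alternatives at each age. The other 5 ATPases were not called at either age.

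Among the non-ATPase subunits, Psmd3 and Psmd7, both of the lid, were higher in luminal cells at 3 months. Psmd3 was at 160, 181 and 171 CPM against 127, 106 and 105 CPM (0.60 ± 0.14, edgeR adjusted p = 0.00169), and Psmd7, the partner of the deubiquitinase Psmd14, was at 91.8, 95.6 and 112 CPM against 59.8, 80.2 and 57.8 CPM (0.60 ± 0.16, edgeR adjusted p = 0.00684). Both sets of libraries were apart. At 24 months their estimates were 0.18 ± 0.14 and 0.01 ± 0.16 and were not called. Psmd8 was lower in luminal cells at 3 months (215, 204 and 207 CPM against 319, 300 and 253 CPM; -0.48 ± 0.13, edgeR adjusted p = 0.0061) and at 24 months (180, 250 and 205 CPM against 270, 264 and 270 CPM; -0.34 ± 0.13, edgeR adjusted p = 0.0473). Its libraries did not overlap at either age.

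At 24 months 4 further non-ATPase subunits were lower in luminal cells. Psmd11, which braces the lid against the core, was at 58.1, 61.9 and 52.5 CPM against 116, 118 and 105 CPM (-0.97 ± 0.17, edgeR adjusted p = 0.000176). Psmd1 (-0.72 ± 0.15, edgeR adjusted p = 0.000907), Psmd12 (-0.71 ± 0.17, edgeR adjusted p = 0.00272) and Psmd2, a docking subunit for ubiquitin receptors (-0.50 ± 0.13, edgeR adjusted p = 0.00583), followed. The luminal libraries of all 4 lay below the basal ones. The first 3 were kept in 14 of 14 alternatives and Psmd2 in 13 of 14. The chaperone Psmd5 was called higher in luminal cells at 3 months (edgeR adjusted p = 0.0466), at 40.1, 22.7 and 37.7 CPM against 1.07, 7.90 and 0 CPM, but the young basal libraries held about 0, 5 and 0 distinct fragments, so no fold is given.

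**Figure D4:**
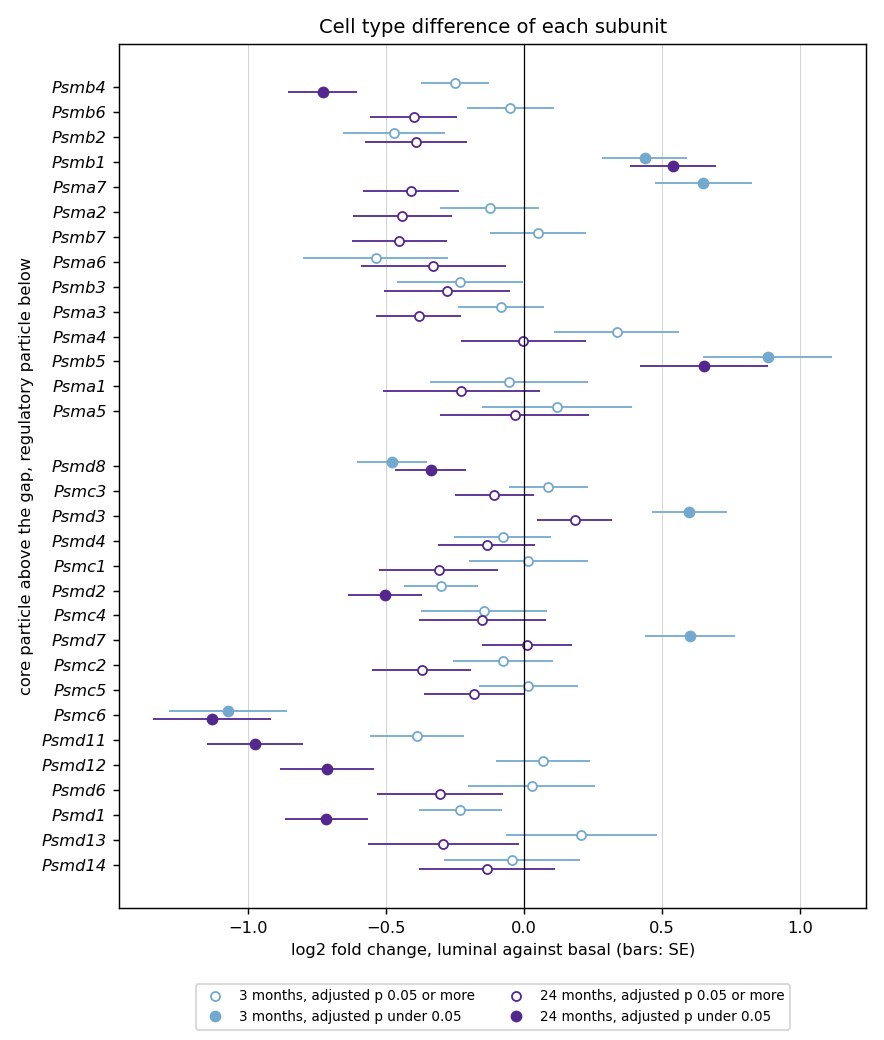
Log2 fold change of each expressed subunit in luminal against basal cells (points) with its SE (bars), at 3 months in light blue and at 24 months in purple; filled points have an edgeR adjusted p under 0.05. Psmc6 lies near -1 and Psmb5 right of 0 at both ages, while most 24-month points lie left of the 3-month points.

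The position of the whole set against basal cells depends on the scale. The 31 expressed subunits had a median log2 of -0.05 at 3 months and -0.309 at 24 months, with 0.192 and 0.00 for all genes. On log2(TPM + 1) with limma, 18 members were called at 3 months (1 higher, 17 lower), when 44.2% of all genes were (15.8% higher, 28.5% lower). At 24 months 16 members were called (0 higher, 16 lower), when 41.1% of all genes were (15.7% higher, 25.3% lower). On that scale the 3-month differences of Psma7, Psmd3 and Psmd7 were 0.12, 0.11 and 0.12 and those of Psmb5 and Psmb1 were 0.41 and -0.05, none of them called. Relative to the median of all genes, the member median lay below 0 under every setting run, at -0.313 to -0.093 at 3 months and -0.353 to -0.167 at 24 months. Seminal vesicle secretory genes (5, Svs2 among them) took 221000 to 360000 TPM in luminal and 1400 to 4310 TPM in basal libraries, and TPM sum to a fixed total in each library. How much of that RNA was made by the sorted cells was not tested.

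Summed over the particle, the core stood at 2112 ± 124 TPM (3 months) and 2308 ± 104 TPM (24 months) in basal cells, and at 1511 ± 44.5 and 1663 ± 160 TPM in luminal cells (SD, n = 3). The regulatory particle stood at 1954 ± 111, 2073 ± 34.6, 1295 ± 41.1 and 1437 ± 207 TPM in the same order. Luminal sums lay below basal sums in every library on this scale. On normalized CPM they did not at 3 months: the core summed to 932 ± 26.1 CPM in young basal and 947 ± 33.6 in young luminal cells, and the regulatory particle to 1578 ± 132 and 1476 ± 49.2 CPM. At 24 months the CPM sums were 1173 ± 15.8 and 977 ± 5.78 for the core and 1949 ± 24.6 and 1534 ± 76.6 for the regulatory particle, without overlap. With age in basal cells, the CPM sums did not overlap, at 915 to 962.5 against 1159 to 1190 for the core, while the TPM sums of 2031 to 2254 and 2191 to 2390 overlapped. The ratio of core to regulatory TPM was 1.08 ± 0.118, 1.11 ± 0.0337, 1.17 ± 0.0416 and 1.16 ± 0.0621 in the 4 groups, which overlap. Regulatory sums, this ratio and the shares below cover Psmc and Psmd names only, not the whole particle. Left out by the rule were the lid subunit Shfm1 and the receptor Adrm1. In the same order of groups, Shfm1 had means of 556, 459, 228 and 219 TPM and Adrm1 of 201, 207, 121 and 140 TPM.

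**Figure D5:**
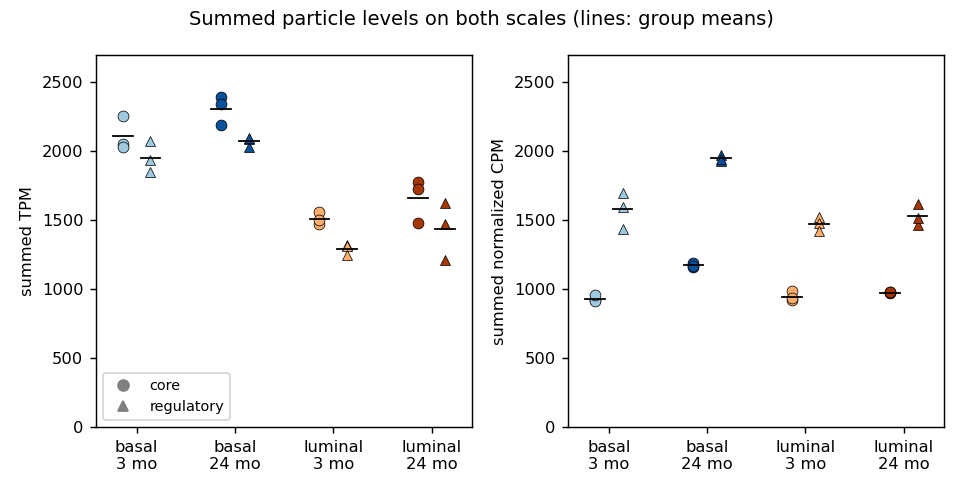
Summed level of the core (circles) and regulatory (triangles) particle in each library, as TPM on the left and normalized CPM on the right, with lines at group means and both axes from 0. Luminal libraries lie below basal ones in TPM at both ages and, in CPM, only at 24 months.

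A share of a subunit in its particle's summed TPM does not depend on library scaling. These shares were computed after the results above were seen and are given without a test. For 24 of 31 subunits the 6 luminal and 6 basal libraries overlapped. Psmb5 made up 3.03 to 4.87% (median 3.29%) of core TPM in basal and 5.65 to 7.43% (median 7%) in luminal libraries. Psmb1 made up 5.49 to 8.83% and 9.66 to 11.3%, and Psmb4, the other way, 13 to 15.1% and 10.3 to 11.8%. In the regulatory particle, Psmd3 (5.22 to 7.44% against 8.26 to 9.64%) and Psmd7 (3.78 to 5.41% against 6.02 to 8.56%) had larger shares in luminal libraries. Psmc6 (4.5 to 7.51% against 2.70 to 4.20%) and Psmd11 (4.15 to 6.12% against 3.42 to 4.13%) had smaller ones. All 7 were also called in the fit of single genes at 1 or both ages, in the same direction. Shares and fit come from the same libraries, so this is not separate evidence. Psma7, Psmd1, Psmd2, Psmd8 and Psmd12 were called in that fit too, but their shares overlapped.

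The genes around the proteasome were read from lists of related function. The immunoproteasome subunits replace the catalytic ones under interferon. None of the 3 was called with age. Psmb8, the counterpart of Psmb5, was higher in luminal cells at 24 months, at 27.1, 26.7 and 32.3 CPM against 6.27, 4.97 and 6.06 CPM (2.32 ± 0.44, edgeR adjusted p = 0.000361). Psmb9 was also called there, at 5.30 against 0.0308 CPM, for which no fold is given because the basal libraries were at or near 0. Of 5 assembly chaperones outside the members, Pomp, which helps the beta ring mature, was called in the comparison of luminal with basal cells at 3 months (52.8 against 31.5 CPM, 0.74 ± 0.20, edgeR adjusted p = 0.00631). None was called at 24 months or with age.

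Of 5 activators and inhibitors, 3 were called between the cell types at 3 months. The inhibitor Psmf1 (34.5 against 9.22 CPM, log2 1.90) and the activator subunit Psme2 (43.6 against 23.8 CPM, 0.87) were higher, and the nuclear activator Psme3 was lower (106 against 150 CPM, -0.51). At 24 months 2 were called: Psme3 was lower (-0.88) and Psme4 higher (0.61). Of 6 receptors and deubiquitinases measured, AI314180, the mouse gene for the proteasome-binding protein Ecm29, was higher in luminal cells (1.26 at 3 and 0.83 at 24 months) and Shfm1, the smallest lid subunit, was lower (-0.80 and -0.89). Neither list had a called gene with age.

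Of 5 shuttle factors, which carry ubiquitinated proteins to the proteasome, 2 were called with higher and 1 with lower luminal values at 3 months, and 0 and 1 at 24 months. Rad23b was lower at both ages (-0.43 and -0.51), and Ubqln1 and Ubqln2 were higher at 3 months (0.60 and 0.79). Of 7 measured genes for Vcp and its cofactors, the segregase that extracts substrates, Faf1 was higher in old basal cells (33.3, 23.4 and 34.0 against 58.1, 55.1 and 61.6 CPM, apart; 0.95 ± 0.22, edgeR adjusted p = 0.0298), a call kept in 6 of 13 alternatives (adjusted p 0.00388 to 0.22). Faf1, Faf2 and Vcp were higher in luminal cells at 3 months (1.12, 0.96 and 0.39), and Ubxn1 at 24 months (0.72).

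Of 6 genes for Nfe2l1 and its activation, Nfe2l1 itself was not called in any of the 5 comparisons, with group means of 370 to 437 CPM. Nfe2l2 rose with age in luminal cells, from 50.1, 41.7 and 53.7 to 82.9, 95.5 and 87.4 CPM (0.87 ± 0.12, edgeR adjusted p = 0.000474), and its basal values overlapped, at 438, 507 and 489 against 470, 449 and 508 CPM. The difference of the age responses was called (0.87 ± 0.17, edgeR adjusted p = 0.0135). In the same luminal libraries 7 of 7 basal markers had an estimate above 0 with age. The 2 called were Krt15 (mean 136 to 433 CPM) and Col17a1 (0.799 to 2.42 CPM). Not called were Krt5 (7.79 to 9.59 CPM), Krt14 (21.0 to 21.3), Trp63 (0.0143 to 0.0297), Itgb4 (118 to 143) and Itga6 (200 to 278). The summed TPM of the 7 was 192 to 238 at 3 and 355 to 737 at 24 months. The part of basal cell RNA in the rise of Nfe2l2 was not tested. Between the cell types 2 of the 6 were called higher and 1 lower in luminal cells at each age. Nfe2l2 was lower (-3.30 and -2.42). Syvn1 (2.16 and 2.68) and Sel1l (2.12 and 2.36), the ligase and its partner that clear proteins from the endoplasmic reticulum and also handle Nfe2l1, were higher in luminal cells.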

How the data were processed

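RNA from sorted, frozen cells was made into poly(A)-selected libraries with a stranded kit, per the labels' protocols. Per the submitters' processing notes, bcl2fastq 2.17, Bowtie2 2.1.0, RSEM 1.2.15 and mm10 were used, with roles that the notes do not give. Per the file headers, the authors deposited RSEM expected counts, TPM and FPKM for each gene; FPKM were not used here. The authors' deposited expected counts were rounded to whole numbers for testing. Deposited TPM gave levels, particle sums and shares.

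Genes passing edgeR's filterByExpr (minimum count 10, minimum total 15; 14201 genes) were fitted in edgeR 4.0.16 (R 4.3.3) by robust quasi-likelihood with TMM factors over all 12 libraries, a mean per group and 5 contrasts, and p-values were adjusted by Benjamini-Hochberg per contrast. Alternatives were DESeq2 1.42.0, its size factors in edgeR, no filter (16878 genes), limma 3.58.1 on log2(TPM + 1), fragment-equivalent counts (each library's counts over its estimated copies per fragment; 11201 genes, minimum count 3 and total 10), a replicate block, only the libraries compared, and leaving out each library. The fit was also run on counts simulated from its own estimates of spread. Those counts do not model PCR copies of few fragments, so this run cannot show how the fit handles them, and its outcome is not given. Groups came from the labels alone. Fold changes carry SE from the fit, and intervals are at 95% from that SE; means carry SD.

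The members and lists were chosen with earlier results of these data known. Named were the catalytic subunits, members called with age or in the difference of the age responses (in luminal cells, where none was, the 3 with the smallest p), up to 6 called members per direction and cell type comparison, the most and least abundant member of each particle, members that failed the filter, and up to 3 called genes per related list. The results of 1 related list are not reported here. Psmd8 at 24 months, Psmb2, Psmd10, Psmd11 as to age, and the 7 subunits with separate shares were named after their values were seen. Markers of leukocytes and endothelium summed to 5.37 to 54.0 and 0.43 to 42.2 TPM over the libraries, with Ms4a1 and Emr1 at 0 in all, and luminal markers to 6190 to 6960 TPM in old basal and 13700 to 15600 TPM in old luminal libraries. Promoters came from RefSeq, gene positions from GENCODE.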

Additional observations from a re-analysis of the deposited data

Results flagged for a closer look

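Among the members and the lists of related function, edgeR's interaction test called 2 genes, and it called 0.922% of all tested genes. Of the cell type markers it called Col17a1, Cnn1 and Pecam1. The test is of a difference between the luminal and the basal age response. Psma7, an alpha subunit of the core, had a difference (luminal minus basal) of -1.06 on the log2 scale, with an adjusted p of 0.0493, and 4 of 19 alternatives called it. Nfe2l2, a transcription factor of the response to oxidative stress, had a difference of 0.87, with an edgeR adjusted p of 0.0135 and 19 of 19 alternatives calling it (4.32e-07 to 0.0315).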

How the results depend on the processing

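Counts of called members depended on the setting. With age in basal cells (2 called), DESeq2 size factors, no filter, limma on TPM and a fit of only the libraries compared each called 0 (0.732 to 1.32% of all genes), fragment-equivalent counts 1 (3.7% of all genes) and DESeq2 4 (5.67% of all genes); leaving out 1 library gave 0 to 2. For the difference of the age responses (1 called), DESeq2 size factors, no filter, limma on TPM and the replicate block within age called 0 (0.824 to 0.979% of all genes), and leaving out 1 library 0 to 1. Luminal against basal cells, limma on TPM called 18 at 3 months (44.2% of all genes) and 16 at 24 months (41.1%), and fragment-equivalent counts 15 at 24 months (57.7%). Summed CPM in place of TPM moved the log2 ratio of the core sums from 0.128 to 0.331 with age in basal cells, from -0.483 to 0.023 between cell types at 3 months and from -0.473 to -0.264 at 24 months. For the regulatory sums the first 2 went from 0.085 to 0.304 and from -0.593 to -0.097. Signs turned for estimates near 0 or on TPM. With limma on TPM these were Psmb7 (-0.43), Psmb1 (-0.048) and Vcp (-0.097) between cell types at 3 months and Psmb5 (0.033) in the difference of the age responses. Psmb7 at 3 months was also -0.050 with fragment-equivalent counts and -0.058 to 0.19 when 1 library was left out, below 0 without basal young replicate 1 and without luminal young replicate 2. Psmb6 at 3 months was -0.55 and called with limma on TPM (adjusted p = 0.00342) and, when 1 library was left out, ranged from -0.15 to 0.0053, above 0 without basal young replicate 2. With age in luminal cells and 1 library left out, Psmb5 ranged from -0.030 to 0.15, below 0 without luminal young replicate 1 and without luminal old replicate 2, and Psmb6 from -0.062 to 0.19, below 0 without the latter. The Psmb5 difference in the age responses then ranged from -0.47 to 0.029, above 0 without basal old replicate 2. The cause was not tested. Of the other values for named genes, 891 kept direction and side of the threshold, 93 lost and 8 gained the threshold. Deviations of same-numbered libraries correlated at -0.03 to 0.03 over 18 pairs, and at -0.0108 to 0.0303 over the 6 pairs of equal age. For the 36 pairs with other numbers the range was -0.0322 to 0.0463. Correlations this small cannot decide whether same-numbered libraries of equal age shared mice. With the replicate block, 2, 0, 1, 7 and 9 members were called in the 5 comparisons in the order given in the report. By the fragment estimate, an expressed subunit had 9 to 359 distinct fragments per library. Counting alone would then give a median CV of up to 17.3% in a group, that of young basal cells. The observed median CV of normalized CPM was lower there, at 13.1%, and in young luminal cells, at 9.93% against 13.5%. It was also lower in old basal cells and slightly higher in old luminal cells. A median of CVs that each rest on 3 libraries tends to lie below the underlying CV. A lower observed value here therefore need not mean less spread than counting gives. Whether the estimate gives too few fragments was not tested.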
